A study of Mus musculus with 8 samples.

Results

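The 10 genes described here are ones that macrophages and monocytes are known for: Csf1r, Spi1, Emr1, Itgam, Clec4a1, Tyrobp, Fcer1g, Lyz2, Plbd1 and Il1b. They were taken by symbol from a table of 24016 genes measured by RNA sequencing of spleen CD4+ T cells, and all 10 had a row. Monoclonal Treg and monoclonal non-Treg cells came from mice of the strain NOD.TCRab.FoxP3GFP.Rag-/-, which carry 1 T cell receptor, a green fluorescent reporter of Foxp3 and no functional Rag recombinase. Polyclonal Treg and polyclonal non-Treg cells came from NOD.FoxP3GFP mice, which carry the same reporter and a diverse receptor repertoire. The reporter-positive fraction is called Treg and the reporter-negative fraction non-Treg, and the series title names a nuclear transfer model of Treg cells. The labels mark the monoclonal cells NT and the polyclonal cells WT. Each of the 4 groups had 2 libraries, A and B, all on the NOD background, which develops autoimmune diabetes. The labels give neither the animals' age nor which Rag gene is inactivated, and do not say whether A and B came from separate mice, so the p-values measure a spread that may be technical. Receptor, Rag genotype, strain and the NT or WT label changed together between the kinds of mice and cannot be told apart.

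Macrophages and monocytes are phagocytes that arise from myeloid progenitors under the transcription factor PU.1 and the growth factor receptor CSF1R. They sense particles and damage through lectins, integrins and Fc receptors, many of which signal through small adaptors that carry an immunoreceptor tyrosine-based activation motif (ITAM). Their products include lysozyme, lysosomal hydrolases and interleukin-1β. In the spleen, red pulp macrophages recycle iron from red blood cells, while monocytes and dendritic cells share several of these genes. T cells normally transcribe few of them.

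Foxp3 checked the sorted fractions. It averaged 2688 ± 30.2 CPM (SD, n = 2 per group) in monoclonal Treg libraries, against 362 ± 60.8 CPM in monoclonal non-Treg libraries, and 2315 ± 48.1 CPM in polyclonal Treg libraries and 83.1 ± 1.65 CPM in polyclonal non-Treg libraries, where CPM is reads per 1000000 reads of the library. Cd3e, a chain of CD3, lay between 406 and 805 CPM in the 8 libraries and was lowest in the 2 monoclonal non-Treg libraries. Depth was 14076330 to 19722321 reads per library, so a count of 0 allows up to 3 reads, or 0.152 to 0.213 CPM, which covers counting error only.

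Each of the 10 genes was higher in both monoclonal libraries of a fraction than in both polyclonal libraries of the same fraction, where 25.4% of all genes tested were so in Treg and 28.7% in non-Treg cells. In the monoclonal libraries the genes lay between 23.7 and 646 CPM, and in the polyclonal libraries between 0 and 12.6 CPM. Their summed level was 823 and 534 CPM in monoclonal Treg libraries, 1713 and 1928 CPM in monoclonal non-Treg libraries, 23.3 and 22.0 CPM in polyclonal Treg libraries and 35.9 and 38.1 CPM in polyclonal non-Treg libraries. Within monoclonal mice, 9 of the 10 genes were lower in both Treg libraries than in both non-Treg libraries, where 31.6% of all genes were so, and Lyz2 was the exception. In these bulk samples, fewer cells of a type and less RNA per cell cannot be told apart.

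**Figure D1:**
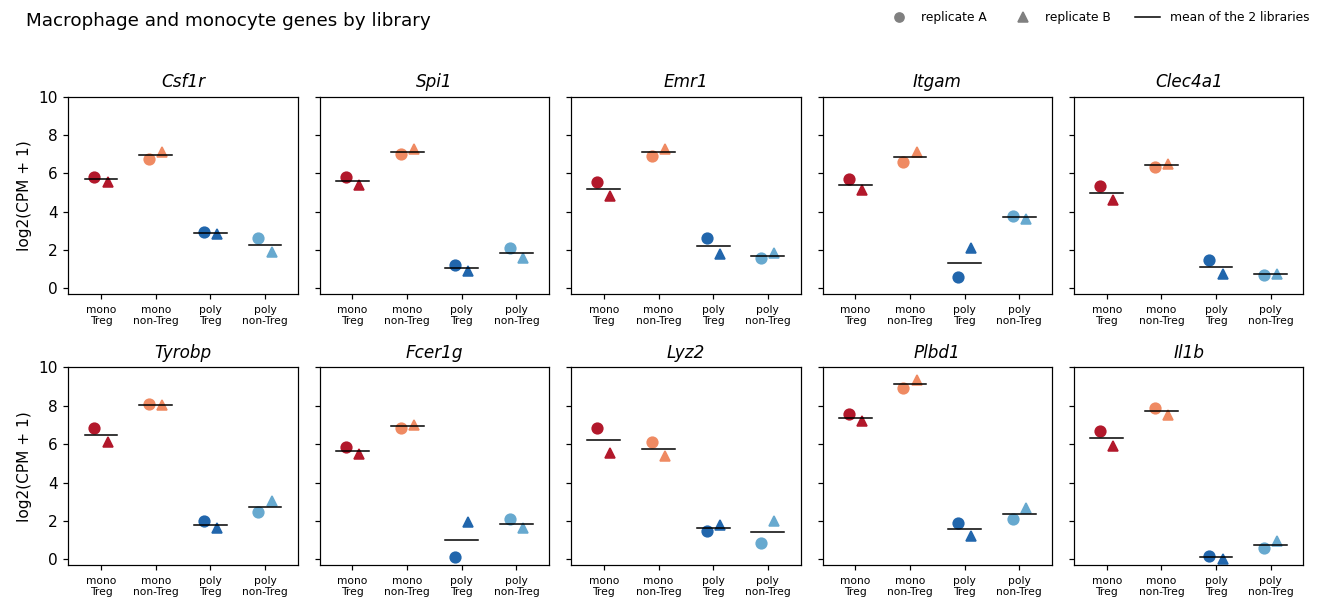
Each panel plots 1 gene as log2(CPM + 1) on the vertical axis for monoclonal (mono) Treg and non-Treg and polyclonal (poly) Treg and non-Treg libraries. Circles are replicate A, triangles replicate B and lines the mean of both. The monoclonal libraries lie above the polyclonal ones in every panel, and Lyz2 is the panel in which the monoclonal Treg and non-Treg libraries overlap.

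Csf1r encodes the receptor of the macrophage growth factors CSF1 and interleukin-34 (chromosome 18 on mm9). It had 55.1 and 45.9 CPM in monoclonal Treg libraries A and B, 108 and 136 CPM in monoclonal non-Treg libraries, 6.68 and 6.14 CPM in polyclonal Treg libraries and 5.25 and 2.78 CPM in polyclonal non-Treg libraries. Both monoclonal Treg libraries lay below both monoclonal non-Treg libraries, while the polyclonal groups had the opposite order, with no overlap. Spi1 encodes PU.1, the transcription factor that sets up the myeloid programme (chromosome 2, 90936954 to 90955913 on mm9). It had 54.1 and 41.1 CPM in monoclonal Treg libraries, 128 and 152 CPM in monoclonal non-Treg libraries, 1.35 and 0.862 CPM in polyclonal Treg libraries and 3.23 and 2.0 CPM in polyclonal non-Treg libraries. Spi1 was lower in Treg than in non-Treg libraries of both kinds of mice, with no overlap.

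Among the surface receptors, Emr1 encodes F4/80, the classical mouse macrophage antigen (chromosome 17, 57498109 to 57622952 on mm9). It had 45.9 and 27.5 CPM in monoclonal Treg libraries, 118 and 155 CPM in monoclonal non-Treg libraries, 5.26 and 2.43 CPM in polyclonal Treg libraries and 1.96 and 2.58 CPM in polyclonal non-Treg libraries. Its polyclonal groups overlapped. Itgam encodes CD11b, the αM integrin of monocytes, macrophages, neutrophils and natural killer cells (chromosome 7, 135206154 to 135262005). It had 50.5 and 33.9 CPM in monoclonal Treg libraries, 96 and 139 CPM in monoclonal non-Treg libraries, 0.497 and 3.30 CPM in polyclonal Treg libraries and 12.6 and 11.4 CPM in polyclonal non-Treg libraries. Itgam had the highest polyclonal non-Treg level of the 10 genes before correction for length. Clec4a1 encodes a C-type lectin of the Dcir group on myeloid cells (chromosome 6, 122871866 to 122884637). It had 38.7 and 23.7 CPM in monoclonal Treg libraries, 80.2 and 88.2 CPM in monoclonal non-Treg libraries, 1.78 and 0.659 CPM in polyclonal Treg libraries and 0.633 and 0.710 CPM in polyclonal non-Treg libraries, so its polyclonal groups overlapped near 1 CPM.

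The adaptors Tyrobp (DAP12) and Fcer1g (the Fc receptor γ chain) each carry an ITAM and pair with receptors of myeloid and natural killer cells. Tyrobp (chromosome 7, 31198807 to 31202598) had 114 and 69.1 CPM in monoclonal Treg libraries, 269 and 262 CPM in monoclonal non-Treg libraries, 2.98 and 2.08 CPM in polyclonal Treg libraries and 4.43 and 7.29 CPM in polyclonal non-Treg libraries. Fcer1g (chromosome 1, 173159703 to 173164480) had 56.6 and 43.9 CPM in monoclonal Treg libraries, 116 and 128 CPM in monoclonal non-Treg libraries, 0.0710 and 2.79 CPM in polyclonal Treg libraries and 3.23 and 2.07 CPM in polyclonal non-Treg libraries. The first polyclonal Treg value of Fcer1g was 1 read, and its second lay between the non-Treg values.

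Of the products, Lyz2 encodes lysozyme, which cleaves bacterial cell walls (chromosome 10, 116714597 to 116719328). It had 115 and 45.2 CPM in monoclonal Treg libraries, 67.5 and 41.3 CPM in monoclonal non-Treg libraries, 1.78 and 2.43 CPM in polyclonal Treg libraries and 0.823 and 2.97 CPM in polyclonal non-Treg libraries. The Treg and non-Treg values of Lyz2 overlapped in both kinds of mice. Its near-identical relative Lyz1 lay between 0 and 1.31 CPM, and the sources used here do not give the counting of reads that match both, so the level of Lyz2 is uncertain to that extent. Plbd1 encodes a phospholipase B family hydrolase (chromosome 6, 136560592 to 136610414). It had 191 and 145 CPM in monoclonal Treg libraries, 494 and 646 CPM in monoclonal non-Treg libraries, 2.77 and 1.32 CPM in polyclonal Treg libraries and 3.23 and 5.42 CPM in polyclonal non-Treg libraries. Plbd1 was lower in Treg libraries of both kinds of mice, without overlap. Il1b encodes the inflammatory cytokine interleukin-1β (chromosome 2, 129190316 to 129196856). It had 102 and 58.8 CPM in monoclonal Treg libraries, 238 and 182 CPM in monoclonal non-Treg libraries, 0.142 and 0 CPM in polyclonal Treg libraries and 0.506 and 0.904 CPM in polyclonal non-Treg libraries. In polyclonal Treg libraries this was 2 reads in all.

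Per kilobase of transcript, the genes differed in level by more than an order of magnitude. In monoclonal non-Treg libraries the mean level per kilobase was 474 CPM for Tyrobp, 291 for Plbd1, 187 for Fcer1g, 159 for Il1b, 105 for Spi1, 54.3 for Clec4a1, 51.8 for Lyz2, 42.4 for Emr1, 31.6 for Csf1r and 25.3 for Itgam. In that order the libraries overlapped between Fcer1g and Il1b, between Clec4a1 and Lyz2, between Lyz2 and Emr1 and between Csf1r and Itgam, and these neighbours did not differ beyond their spread. Tyrobp also had the highest mean per kilobase in the other 3 groups, with 163 CPM in monoclonal Treg libraries, 4.53 in polyclonal Treg and 10.5 in polyclonal non-Treg libraries. In polyclonal Treg libraries A and B it overlapped with Fcer1g, at 5.34 and 3.72 for Tyrobp against 0.109 and 4.28 for Fcer1g. Lyz2 ranked 4 of 10 in monoclonal Treg libraries, with a mean of 76.2 CPM per kilobase, from 109 in replicate A and 43.0 in B.

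Promoters are shown for those of the 10 genes with a match to the short core that PU.1 is known to bind. The promoter of Il1b, the gene with the largest difference between the kinds of mice, is shown as well. Promoters of 6 of the 10 genes were in the RefSeq table (GRCm38.p6, another build than that of the deposited positions), those of Clec4a1, Fcer1g, Il1b, Itgam, Lyz2 and Plbd1. The 250 bases before the start were searched on both strands for the PU.1 core GAGGAA, the C/EBP motif TTGCNNAA and the TATA box TATAAA, and no 2 matches in these 6 promoters overlapped. The core was in 2 of the 6, Itgam and Clec4a1, a count near its share of 23.3% of all 32851 promoter windows of that length. The C/EBP motif was in 0 of the 6 and in 9.56% of all, and the TATA box in 1 of the 6, Il1b, and in 12.4% of all. In the sequences, written 5′ to 3′ on the gene's strand, capitals mark the PU.1 core on either strand in Itgam (chr7:128062390-128062639, plus strand) and Clec4a1 (chr6:122921598-122921847, plus strand), and the TATA box in Il1b (chr2:129371140-129371389, minus strand).
Itgam: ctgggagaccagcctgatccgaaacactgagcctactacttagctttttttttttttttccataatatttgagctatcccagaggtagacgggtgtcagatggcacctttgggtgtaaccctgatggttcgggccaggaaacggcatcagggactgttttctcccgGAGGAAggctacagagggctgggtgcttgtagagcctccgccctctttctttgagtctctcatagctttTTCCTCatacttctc
Clec4a1: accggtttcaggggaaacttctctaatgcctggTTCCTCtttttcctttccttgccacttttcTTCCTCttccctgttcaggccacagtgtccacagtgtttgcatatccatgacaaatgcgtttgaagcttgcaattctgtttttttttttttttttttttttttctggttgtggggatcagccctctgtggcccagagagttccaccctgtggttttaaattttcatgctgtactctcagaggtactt
Il1b: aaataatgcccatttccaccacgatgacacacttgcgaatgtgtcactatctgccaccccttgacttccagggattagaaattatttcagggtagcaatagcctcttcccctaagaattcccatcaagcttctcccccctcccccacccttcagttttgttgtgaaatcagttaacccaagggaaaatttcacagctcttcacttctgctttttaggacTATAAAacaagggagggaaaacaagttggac
The matches in Itgam began 84 and 15 bases before the start and those in Clec4a1 217 and 187 bases before it, while the TATA box of Il1b began 31 bases before it. A match describes letters only, and no binding was measured.

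The difference between monoclonal and polyclonal mice was larger than the spread between libraries for every member. Among Treg cells, 10 of the 10 genes were higher in monoclonal libraries (limma on log2(CPM + 1), Benjamini-Hochberg adjusted p under 0.05), where 12.1% of the 12881 genes tested were higher. Among non-Treg cells, 10 of 10 were again higher, where 12.1% of all genes were. All 10 had at least 1 CPM in at least 2 libraries and so were tested, but Clec4a1 and Il1b met that filter only through the monoclonal libraries where they are high. The median log2 fold change of the 10 genes was 4.55 in Treg cells and 5.30 in non-Treg cells, against -0.03 and -0.07 over all genes tested.

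In Treg cells the log2 fold changes between monoclonal and polyclonal libraries ran from 2.79 ± 0.28 (SE) for Csf1r (adjusted p = 5.10e-06) and 2.98 ± 0.34 for Emr1 (adjusted p = 2.13e-05) to 5.83 ± 0.28 for Plbd1 (adjusted p = 6.18e-09) and 6.20 ± 0.33 for Il1b (adjusted p = 1.53e-08). Those of Clec4a1, Itgam, Lyz2, Spi1, Tyrobp and Fcer1g lay between 3.87 and 4.68. In non-Treg cells the smallest change was that of Itgam, at 3.16 ± 0.40 (adjusted p = 3.69e-05), and the largest were again those of Plbd1 at 6.76 ± 0.28 and Il1b at 6.95 ± 0.33 (adjusted p = 5.21e-10 and 1.82e-09). As a ratio of mean CPM, which the added 1 CPM does not shrink, Csf1r was 7.88 times as high in monoclonal as in polyclonal Treg cells and 30.3 times as high in monoclonal as in polyclonal non-Treg cells. The same ratios were 82.3 and 132 for Plbd1. For Il1b, pooled reads gave a ratio of 1334 in Treg cells, from 2600 against 2 reads (95% exact interval from counting alone, 369 to 11024). In non-Treg cells the Il1b ratio was 302 (199 to 481), from 7109 against 22 reads.

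Within monoclonal mice, 8 of the 10 genes fell in Treg relative to non-Treg libraries by limma, where 13.6% of all genes tested fell and 10.8% rose. The median log2 fold change of the 10 was -1.45, against -0.02 over all genes. Emr1 had the largest decrease, with a log2 fold change of -1.90 ± 0.34 (adjusted p = 0.00107), followed by Plbd1 at -1.75 ± 0.28 (adjusted p = 0.000385), Tyrobp at -1.57 ± 0.28 (adjusted p = 0.00102) and Spi1 at -1.54 ± 0.30 (adjusted p = 0.00179). Itgam, Clec4a1, Il1b and Csf1r fell by 1.46, 1.44, 1.41 and 1.25 on the log2 scale. In mean CPM the non-Treg level of these 8 genes was 2.41 to 3.72 times the Treg level.

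Fcer1g and Lyz2 did not pass the test in the monoclonal comparison. Fcer1g had a log2 fold change of -1.27 ± 0.45 (limma, adjusted p = 0.0538). The fit shares 1 spread over the 4 groups, and the polyclonal Treg libraries were 0.0710 and 2.79 CPM. Without polyclonal Treg replicate A or B its adjusted p was 0.00165 or 0.00246, and with the monoclonal libraries fitted alone it was 9.85e-05. Lyz2 had 0.44 ± 0.45 (adjusted p = 0.527), and its sign turned without monoclonal Treg replicate A (-0.22) and with scaling to the CD3 genes (-0.12). Without monoclonal non-Treg replicate B, 3 of the 10 genes were called lower, and without monoclonal Treg replicate B 5 were. The genes that lost their call without that non-Treg library were Csf1r (adjusted p = 0.101), Clec4a1 (0.117), Itgam (0.199), Spi1 (0.0574) and Il1b (0.0507). Without monoclonal non-Treg replicate A, Clec4a1 (0.0664) and Il1b (0.108) lost it, and without monoclonal Treg replicate B, Clec4a1 (0.0736), Itgam (0.123) and Il1b (0.0651) did. Itgam also lost it with a pseudocount of 0.25 CPM (0.0640) and with no filter (0.0698).

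**Figure D2:**
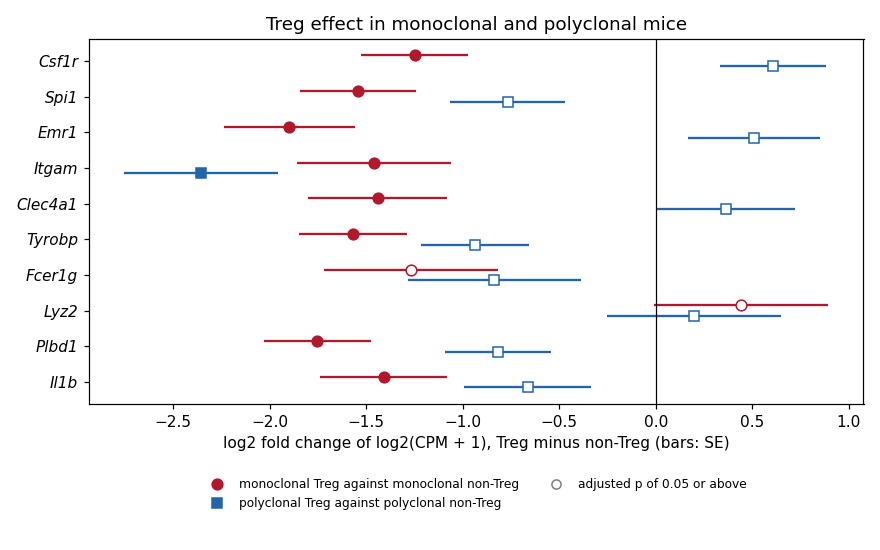
Log2 fold change of Treg minus non-Treg libraries for each gene on the log2(CPM + 1) scale, with the SE as bars, for monoclonal mice (red circles) and polyclonal mice (blue squares). Open symbols have an adjusted p of 0.05 or above; 8 monoclonal values are called, all below 0, and Itgam is the polyclonal value that is called.

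In polyclonal mice Itgam was the only one of the 10 genes that passed the test between Treg and non-Treg cells, where 3.28% of all genes fell and 4.63% rose. Both Treg libraries lay below both non-Treg libraries for 5 of the 10, where 22.2% of all genes did so, and above them for 1, Csf1r, where 25% did. Itgam averaged 1.90 ± 1.98 CPM in polyclonal Treg libraries and 12 ± 0.827 CPM in polyclonal non-Treg libraries (SD, n = 2 per group). Its log2 fold change was -2.36 ± 0.40 (limma, adjusted p = 0.00152). The 9 markers of natural killer cells, which carry CD11b, summed to 22.2 and 22.9 CPM in polyclonal Treg libraries, against 59.3 and 55.7 CPM in polyclonal non-Treg libraries. Most of the non-Treg sum came from Eomes (21.5 and 21.2 CPM), Prf1 (17.6 and 16.2 CPM) and Klrd1 (10.8 and 9.17 CPM). Ncr1 and Klrb1c had 1.39 and 0.387 CPM and 3.16 and 3.03 CPM in those non-Treg libraries, and neither passed the test. Of the 8 that were tested, Klrd1 and Prf1 fell and 0 rose. In the same comparison 6 of 15 dendritic cell markers and 3 of 17 monocyte markers fell and 0 rose, where 3.28% of all genes fell. The part of natural killer cell, dendritic cell or monocyte RNA in the Itgam result was not tested. Tyrobp, at -0.94 ± 0.28, missed the threshold (adjusted p = 0.0582) and passed it under edgeR's quasi-likelihood test on recovered reads (adjusted p = 0.0423 with TMM and 0.0435 with RLE size factors), with a pseudocount of 0.25 CPM (0.0407) and without polyclonal Treg replicate A (0.0322), polyclonal non-Treg replicate A (0.0486) or either monoclonal Treg library (0.0389 without A and 0.0367 without B). Without polyclonal Treg replicate A Plbd1 also passed (adjusted p = 0.0130), and without polyclonal Treg replicate B Fcer1g did (0.00336). Spi1 passed by edgeR with TMM only, at the threshold. Il1b passed with the smaller pseudocount (0.0387), from 2 against 22 reads. Csf1r, Emr1, Clec4a1 and Lyz2 had positive values of 0.20 to 0.61, none of which passed the test.

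The Treg effect itself differed between the kinds of mice for 3 of the 10 genes, Csf1r, Emr1 and Clec4a1. Tested directly as the monoclonal minus the polyclonal effect, where 5.56% of all genes had a lower and 3.64% a higher effect, the log2 difference was -1.86 ± 0.39 for Csf1r (limma, adjusted p = 0.00880), -2.41 ± 0.48 for Emr1 (adjusted p = 0.00650) and -1.80 ± 0.51 for Clec4a1 (adjusted p = 0.0404). For these 3 genes the monoclonal effect was negative and the polyclonal one was above 0 but did not pass the test. The polyclonal effect of Clec4a1 rests on 10 to 25 reads per library, and the gene met the filter only through the monoclonal libraries, so its polyclonal effect is poorly measured. The other 7 genes had differences of -0.94 to 0.90 that did not pass. Without monoclonal non-Treg replicate B all 3 lost their call, with adjusted p of 0.0989 for Csf1r, 0.0784 for Emr1 and 0.210 for Clec4a1. Without polyclonal non-Treg replicate B only Emr1 passed (Csf1r 0.0507, Clec4a1 0.111), and without polyclonal Treg replicate B 5 genes did, Itgam (0.0147, a higher effect) and Plbd1 (0.0242) being added. Without polyclonal Treg replicate A, Fcer1g passed (0.0429) and Clec4a1 did not (0.0838). Clec4a1 also missed the threshold without monoclonal Treg replicate B (0.107), monoclonal non-Treg replicate A (0.137) and polyclonal non-Treg replicate A (0.122), with a pseudocount of 0.25 CPM (0.0733) and with no filter (0.0837).

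Replicate A of monoclonal Treg cells exceeded replicate B for 10 of the 10 genes, by 1.2 to 2.54 times, where 49.9% of all genes tested were higher in A. In monoclonal non-Treg cells A exceeded B for 3 of the 10, Lyz2, Il1b and Tyrobp, where 54% of all genes did. Lyz2 had the largest such ratio in both fractions, 2.54 in Treg and 1.64 in non-Treg cells of monoclonal mice. Each of the 12 neutrophil markers was, like Lyz2, higher in A than in B in both fractions, with a median ratio of 5.82 in the Treg and 5.95 in the non-Treg cells of monoclonal mice. Of the 15 dendritic cell markers, 11 were higher in A in monoclonal Treg cells and 6 in monoclonal non-Treg cells, with median ratios of 1.29 and 0.93, beside 1.56 and 0.87 for the 10 genes. The summed level of the neutrophil markers was 1571 and 284 CPM in monoclonal Treg libraries A and B, 509 and 89.3 CPM in monoclonal non-Treg libraries, 52.9 and 21.7 CPM in polyclonal Treg libraries and 42.7 and 21.0 CPM in polyclonal non-Treg libraries. S100a9, an abundant neutrophil protein, had 497 and 77.9 CPM in monoclonal Treg libraries and 157 and 21.5 CPM in monoclonal non-Treg libraries. The part of neutrophil RNA in the Lyz2 values was not tested. Csf3r, the granulocyte growth factor receptor, named here after its values were seen, was also highest in replicate A of each fraction, at 42.3 and 11.7 CPM in Treg and 32.6 and 15.7 CPM in non-Treg libraries.

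**Figure D3:**
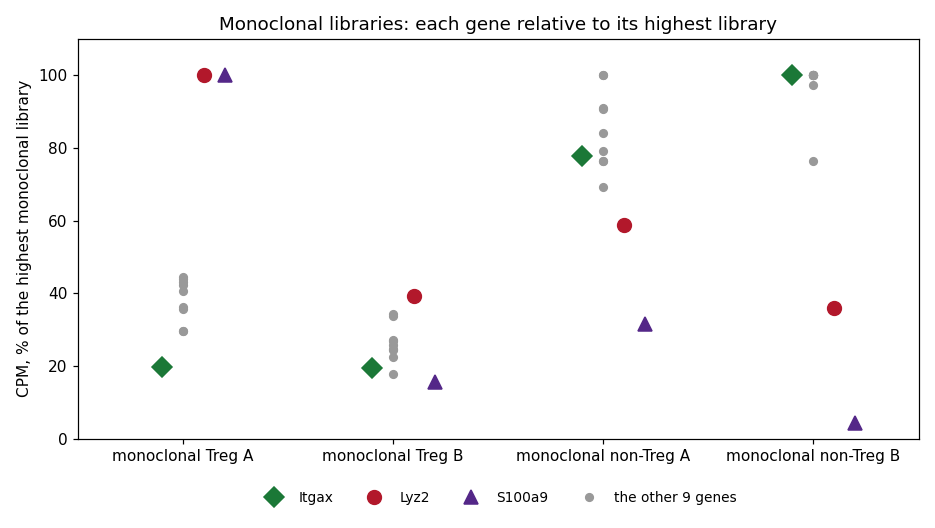
CPM of each gene in the 4 monoclonal libraries as a percentage of its highest monoclonal library. Lyz2 (red) and the neutrophil gene S100a9 (purple) peak in monoclonal Treg replicate A, while the other 9 genes (grey) and the dendritic cell integrin gene Itgax (green) lie at 44.4% or less in both Treg libraries and at 69.1% or more in both non-Treg libraries.

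Genes of dendritic cells, which present antigen to T cells and share several of the 10 genes, were also lower in monoclonal Treg than non-Treg libraries. The 15 dendritic cell and class II markers summed to 6973 and 5243 CPM in monoclonal Treg libraries, 20222 and 22560 CPM in monoclonal non-Treg libraries, 113 and 142 CPM in polyclonal Treg libraries and 247 and 292 CPM in polyclonal non-Treg libraries. Most of each sum was Cd74 and the class II genes H2-Aa, H2-Ab1 and H2-Eb1. Cd74 alone had 2676 and 2023 CPM in monoclonal Treg libraries and 7342 and 8497 CPM in monoclonal non-Treg libraries. Of the 15, 12 fell in monoclonal Treg relative to monoclonal non-Treg cells, where 13.6% of all genes fell. In monoclonal Treg cells 13 were higher than in polyclonal ones, and in monoclonal non-Treg cells 14 were, where 12.1% of all genes were higher in each comparison. Some of the 15, such as Batf3, Clec9a, Zbtb46 and Cd209a, met the filter only through the monoclonal libraries where they are high. Itgax, which encodes CD11c, had 245 and 241 CPM in monoclonal Treg libraries, 961 and 1234 CPM in monoclonal non-Treg libraries, 8.45 and 2.13 CPM in polyclonal Treg libraries and 10.4 and 10.9 CPM in polyclonal non-Treg libraries. The 10 B cell markers summed to 70.0 and 50.1 CPM in monoclonal Treg libraries, 249 and 308 CPM in monoclonal non-Treg libraries, 28.9 and 46.5 CPM in polyclonal Treg libraries and 46.9 and 69.8 CPM in polyclonal non-Treg libraries. The part of dendritic cell or B cell RNA in the values of the 10 genes was not tested.

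The 19 markers of splenic macrophages that were measured summed to 192 and 276 CPM in monoclonal Treg libraries, 205 and 243 CPM in monoclonal non-Treg libraries, 135 and 136 CPM in polyclonal Treg libraries and 75.4 and 81.7 CPM in polyclonal non-Treg libraries. The list also held Adgre1, the current symbol of Emr1, which had no row under that symbol. Emr1 is therefore left out of these sums and of the counts below, although it was higher in monoclonal cells of both fractions. Of the 19, 8 stayed under 5 CPM in all 8 libraries. In monoclonal against polyclonal mice, 3 of the 17 that were tested were higher in Treg cells (Cd68, Spic and Cd5l) and 3 in non-Treg cells (Cd68, Spic and Axl), counts near the 12.1% of all genes that were higher in each comparison. Cd68, a lysosomal membrane protein of phagocytes, had 61.2 and 38.8 CPM in monoclonal Treg libraries, 125 and 136 CPM in monoclonal non-Treg libraries, 10.2 and 8.06 CPM in polyclonal Treg libraries and 13.2 and 8.13 CPM in polyclonal non-Treg libraries. Axl, a receptor tyrosine kinase that binds dying cells, also differed between fractions: it had 73.3 and 98.6 CPM in monoclonal Treg libraries and 22.5 and 24.6 CPM in monoclonal non-Treg libraries, and 53.5 and 62.4 CPM in polyclonal Treg libraries and 11.7 and 13.9 CPM in polyclonal non-Treg libraries. Hmox1, the haem-degrading enzyme of red pulp macrophages, and the adhesion molecule Vcam1 did not pass the test in any of the 5 comparisons. Some markers were picked out after their values were seen. Spic, the transcription factor of red pulp macrophages, had 5.32 and 12.3 CPM in monoclonal Treg libraries, 4.82 and 10.5 CPM in monoclonal non-Treg libraries, 1.14 and 2.38 CPM in polyclonal Treg libraries and 1.14 and 2.32 CPM in polyclonal non-Treg libraries. Cd5l, a secreted macrophage protein, averaged 5.35 ± 1.06 CPM in monoclonal Treg libraries and 1.47 ± 0.897 CPM in monoclonal non-Treg libraries, and 1.28 ± 0.0940 CPM in polyclonal Treg libraries and 0.416 ± 0.0510 CPM in polyclonal non-Treg libraries (SD, n = 2 per group). Vsig4 had 0 reads in every library, the complement gene C1qa lay between 2.28 and 6.0 CPM, and Mertk between 0 and 3.98 CPM. The name macrophage and monocyte genes describes what the 10 genes are known for, and no cell type is assigned to them here.

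**Figure D4:**
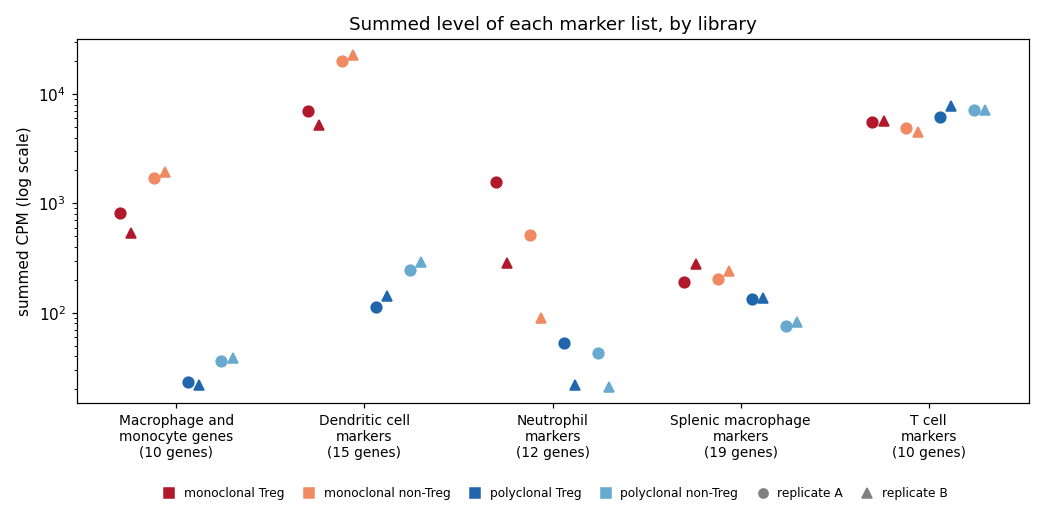
Summed CPM of each list of genes (log scale) in every library, by group (colour) and replicate (shape). The 10 macrophage and monocyte genes and the 15 dendritic cell markers are highest in monoclonal non-Treg libraries. Most of the dendritic cell sum is Cd74 and class II genes. The neutrophil markers are highest in monoclonal Treg replicate A, and the splenic macrophage list, which leaves out Emr1, spans 75.4 to 276 CPM.

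Of 17 monocyte markers measured, 14 were higher in monoclonal than in polyclonal cells in each fraction, where 12.1% of all genes were higher in each. Some of them, such as Clec4a3, Cd14, Ace and Ifitm6, met the filter of 1 CPM only through the monoclonal libraries where they are high. In monoclonal Treg relative to monoclonal non-Treg cells 7 fell and 1 rose, where 13.6% of all genes fell and 10.8% rose. Sirpa, an inhibitory receptor that binds CD47, had 171 and 127 CPM in monoclonal Treg libraries, 502 and 663 CPM in monoclonal non-Treg libraries, 1.99 and 5.17 CPM in polyclonal Treg libraries and 8.04 and 8.65 CPM in polyclonal non-Treg libraries. Mpeg1, a pore-forming protein of phagocytes, and Ms4a6c fell as well, by 1.92 and 0.98 on the log2 scale. Ccr2, the chemokine receptor of inflammatory monocytes that effector T cells also carry, was the marker that rose, to 769 and 673 CPM in monoclonal Treg libraries, against 232 and 169 CPM in monoclonal non-Treg libraries (log2 fold change 1.86 ± 0.15, adjusted p = 1.73e-06).

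Of the 8 genes of the growth factor axis around Csf1r, 5 were tested, and 1 rose and 3 fell in monoclonal Treg relative to monoclonal non-Treg cells, where 10.8% of all genes rose and 13.6% fell. Csf1, the ligand of Csf1r, was higher in Treg cells of both kinds of mice: 100.3 and 88.8 CPM in monoclonal Treg libraries against 20.4 and 21.9 CPM in monoclonal non-Treg libraries, and 64.4 and 69.8 CPM in polyclonal Treg libraries against 19.2 and 18.8 CPM in polyclonal non-Treg libraries. The log2 fold changes were 2.11 ± 0.18 and 1.77 ± 0.18 (adjusted p = 2.25e-06 and 2.23e-05), and their difference did not pass the test (adjusted p = 0.462). The other ligand, Il34, named after its values were seen, had no reads in 6 libraries and at most 0.258 CPM in the polyclonal non-Treg ones. Csf2ra, Csf2rb and Csf2rb2, subunits of the receptors of granulocyte-macrophage colony-stimulating factor and interleukin-3, fell in monoclonal Treg cells by 1.58, 2.11 and 2.21 on the log2 scale, as Csf1r did. Csf3r had -0.01 ± 0.53 there (adjusted p = 0.992). In polyclonal mice none of these receptor genes passed the test, with log2 values of 0.30 for Csf2ra, -0.13 for Csf2rb, -0.85 for Csf2rb2 and -0.26 for Csf3r. Csf2rb and Csf2rb2 are near-identical genes, so the split of reads between them is uncertain.

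Of 20 measured genes listed as ITAM-receptor partners and kinases, 19 were tested. In monoclonal Treg relative to monoclonal non-Treg cells 10 of them fell, where 13.6% of all genes fell. Pairing with an ITAM adaptor was not checked for each gene of the list, which includes Treml2 and Hcst. The kinase Syk, which docks to phosphorylated ITAMs, had 131 and 97.5 CPM in monoclonal Treg libraries, 447 and 565 CPM in monoclonal non-Treg libraries, 8.03 and 5.73 CPM in polyclonal Treg libraries and 12.1 and 13.8 CPM in polyclonal non-Treg libraries. The Src family kinases Fgr and Lyn fell by 2.17 and 1.64. Treml2 differed from these in that it also stood at 119 to 151 CPM in the polyclonal libraries: it had 30.0 and 35.0 CPM in monoclonal Treg libraries, against 156 and 125 CPM in monoclonal non-Treg libraries. In the Clec4 cluster, 8 of 9 genes were tested and 4 fell in monoclonal Treg cells, among them Clec4a1, Clec4a4 and Clec4a2, against the same 13.6% of all genes. The other, Clec4b1, met the filter only through the monoclonal non-Treg libraries where it is high. The sequences of this family are related and their reads may be shared.

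Itgb2, the β2 chain that pairs with the product of Itgam, lay at 658 to 850 CPM in all 8 libraries and passed the test in none of the 5 comparisons, and Itgal, the T cell αL chain, was lower in monoclonal than in polyclonal cells (-0.88 ± 0.11 in Treg and -1.02 ± 0.11 in non-Treg cells). Casp1, the protease that activates interleukin-1β, had 63.7 and 71.7 CPM in monoclonal Treg libraries and 65.0 and 67.4 CPM in monoclonal non-Treg libraries, against 41.3 and 45.1 CPM in polyclonal Treg libraries and 54.8 and 61.2 CPM in polyclonal non-Treg libraries. It was higher in monoclonal than in polyclonal Treg cells (log2 0.64 ± 0.16, adjusted p = 0.0109). The inflammasome sensor Aim2 and the adaptor Pycard passed in no comparison. The sensor Nlrp3, named after its values were seen, had 24.6 and 21.5 CPM in monoclonal Treg libraries, 94.6 and 121 CPM in monoclonal non-Treg libraries, 0.284 and 0.203 CPM in polyclonal Treg libraries and 0.506 and 0.710 CPM in polyclonal non-Treg libraries. Its log2 fold change was -2.17 ± 0.33 between the monoclonal fractions (limma, adjusted p = 0.000304) and 4.27 ± 0.33 between monoclonal and polyclonal Treg cells (adjusted p = 3.93e-07). The difference of its Treg effects was -1.80 ± 0.47 (adjusted p = 0.0279). Nlrp3 met the filter of 1 CPM only through the monoclonal libraries where it is high, so its polyclonal level and that difference are poorly measured. Of 14 IL-1 and inflammasome genes measured, 10 were tested, and 1 rose and 2 fell in monoclonal Treg relative to monoclonal non-Treg cells, counts near the 10.8% of all genes that rose and 13.6% that fell. Of 14 lysosomal genes, which include Ctss and Ctsb, 13 were tested, and 8 fell and 1 rose in that comparison, against the same shares of all genes. Psap, the precursor of the saposins, had 990 and 860 CPM in monoclonal Treg libraries, against 1730 and 1859 CPM in monoclonal non-Treg libraries.

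Among transcription factors of myeloid cells, 14 of 15 were tested, and 7 fell and 1 rose in monoclonal Treg relative to monoclonal non-Treg cells, where 13.6% of all genes fell and 10.8% rose. The Treg effect was lower for 5 and higher for 1 when monoclonal mice were set against polyclonal mice, where it was lower for 5.56% and higher for 3.64% of all genes. Irf8, needed for dendritic cells and monocytes, had 105 and 60.2 CPM in monoclonal Treg libraries, 333 and 216 CPM in monoclonal non-Treg libraries, 55.8 and 66.8 CPM in polyclonal Treg libraries and 39.6 and 35.8 CPM in polyclonal non-Treg libraries. Irf5, which drives inflammatory cytokine genes, fell by 0.79 in monoclonal Treg cells and was higher by 1.68 ± 0.24 in polyclonal Treg cells (adjusted p = 0.0238 and 0.000326). Runx1 passed in no comparison.

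The genes whose profile over the 8 libraries was most like that of Csf1r, by Pearson's correlation of log2(CPM + 1) among 10636 genes, were Stk32c, Hfe, Pla2g7, Csf2ra, Rasgrp4 and Rtn1, at 0.991 to 0.994. Rasgrp4, for example, had 55.6 and 46.0 CPM in monoclonal Treg libraries, 118 and 164 CPM in monoclonal non-Treg libraries, 7.81 and 6.29 CPM in polyclonal Treg libraries and 7.59 and 5.74 CPM in polyclonal non-Treg libraries. For Il1b they were H2-M2, Mcemp1, Cd300a, Cd74, Ifitm6 and Tifab, at 0.995 to 0.998. Among the 10 genes themselves the lowest correlation was 0.819, between Itgam and Lyz2. The 8 libraries fall into 4 groups, so the correlations are a description over points that share their group.

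Scaling each library to its summed CD3 transcripts (Cd3d, Cd3e, Cd3g and Cd247) moved the median log2 fold change over all genes by -0.53 in monoclonal Treg against monoclonal non-Treg cells, by -0.55 in the difference of the Treg effects and by 0.47 in monoclonal against polyclonal non-Treg cells. Of all genes called, 44.4% were higher in the Treg cells of monoclonal mice in the main test and 8.49% under that scaling. For the difference of the effects the shares were 39.6% and 4.94%, and for monoclonal against polyclonal non-Treg cells 62.2% and 95.3%. Under that scaling 9 of the 10 genes fell in monoclonal Treg cells, Fcer1g being added, and Lyz2 had a log2 value of -0.12. Of all genes, 4428 of the 12966 tested fell under that scaling, against 1747 of 12881 in the main test.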

How the data were processed

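The 8 libraries (4 groups of 2) were read from 1 deposited table whose values are CPM, which the authors scaled so that each library sums to 1000000. Per the submitters' processing notes, the tools were STAR 2.4.1a, HOMER 4.7, Trimmomatic 0.33, FastQC 0.10.1, CASAVA 1.8.2 and edgeR and the build was mm9, without a stated role for each; per the labels' protocols, poly-dT selected, stranded libraries were read as single ends of 50 bases. All values (100%) came out as whole reads at a tolerance of 0.01 read, which gave back the read counts, and 0 per-sample columns were left unused.

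The main test was limma 3.58.1 (R 4.3.3) on log2(CPM + 1) for the 12881 genes that reached 1 CPM in 2 or more libraries, with a mean-variance trend and robust spread, all 8 libraries in 1 fit of group means, 2-sided and Benjamini-Hochberg adjusted over all genes tested, threshold 0.05. The design named this test for CPM. The pseudocount understates changes of low genes. Count tests used edgeR 4.0.16 on the recovered reads. The scripts were tested on simulated data. The variance between the libraries of a group was 7.55 to 44.2 times that of counting.

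The members and gene lists were chosen with earlier results of these data known. All 10 members are named; from other lists up to 4 genes with the highest mean CPM are named. Csf3r, Il34, Nlrp3, Lyz1, Spic, Cd5l, C1qa, Mertk, Vsig4, Ncr1 and Klrb1c fall outside that rule and were picked after their values were seen. Profile likeness was ranked for Csf1r and Il1b among tested genes whose mean log2 level reached 2, without unnamed loci. Symbols were matched to the RefSeq promoter table for 6 members.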

Additional observations from a re-analysis of the deposited data

Results flagged for a closer look

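The Treg effect differed between the kinds of mice, by a test of the difference itself, for 3 of the 10 genes. The monoclonal effect minus the polyclonal effect was -1.86 on the log2 scale for Csf1r (limma, adjusted p = 0.00880), with effects of -1.25 in monoclonal and 0.61 in polyclonal mice. For Emr1 the difference was -2.41 (adjusted p = 0.00650), with effects of -1.90 and 0.51. For Clec4a1 it was -1.80 (adjusted p = 0.0404), with effects of -1.44 and 0.36, but the polyclonal effect rests on 10 to 25 reads per library and the gene met the filter of 1 CPM only through the monoclonal libraries. Its call was lost with a pseudocount of 0.25 CPM (adjusted p = 0.0733), with no filter (0.0837) and without any 1 of 6 libraries (0.0838 to 0.210). Both monoclonal Treg libraries lay below both monoclonal non-Treg libraries for each of the 3 genes. Lower monoclonal effects were also called outside the 10 genes, where 5.56% of all genes had one. Among tested genes they were called for 2 of 5 of the growth factor axis and 2 of 15 dendritic cell markers. Of the 19 tested in the ITAM list, 5 had a lower and 1 a higher effect, and 0 of 17 splenic macrophage markers had either. Leaving out monoclonal non-Treg replicate B removed all 3 calls (adjusted p = 0.0989, 0.0784 and 0.210 for Csf1r, Emr1 and Clec4a1).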

How the results depend on the processing

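All 10 members stayed higher in monoclonal than in polyclonal Treg and non-Treg cells under each of the 15 alternatives. Of the 10, 8 were called lower in monoclonal Treg relative to monoclonal non-Treg cells, and 3 to 9 when 1 library was left out. In polyclonal mice 1 was called; 3 were with a pseudocount of 0.25 CPM and with edgeR and TMM, 2 with edgeR and RLE size factors, and 1 to 3 with 1 library left out. In the difference of the Treg effects 3 were called, and 0 to 5 with 1 library left out. With the replicate letter as a replicate block the counts were 8, 1, 3, 10 and 10, as without it, and no call of a member changed. The labels do not say whether a letter marks a shared source. The A minus B differences correlated across genes at -0.09 to 0.10 between groups, while the summed neutrophil markers were higher in A in all 4 groups.

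Signs turned for values that had passed no test, and the cause was not tested. Lyz2 in the monoclonal comparison was -0.12 with CD3 scaling and -0.22 to 1.11 with 1 library left out. In polyclonal mice, leaving out 1 library gave -0.010 to 0.73 for Clec4a1, -0.36 to 0.76 for Lyz2 and -1.75 to 0.074 for Fcer1g. In the difference of the effects, Lyz2 was -0.32 with CD3 scaling and -0.42 to 0.91 with 1 library left out, Fcer1g was 0.24 with a pseudocount of 0.25 CPM and -1.34 to 0.48 with 1 library left out, and Il1b was 0.16 with that pseudocount, 1.97 with edgeR and TMM and 2.0 with RLE.

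Over all genes, the number called moved by more than 1.5 times in these fits. Between monoclonal Treg and non-Treg cells it was 3143, and 4839 with CD3 scaling and 1892 and 1300 without monoclonal non-Treg replicates A and B. Between polyclonal Treg and non-Treg cells it was 1018, and 559 with CD3 scaling and 472 without replicate A and 435 without replicate B of polyclonal non-Treg cells. For the difference of the effects it was 1185, and 756 with no filter and 395 to 621 without 1 of the non-Treg libraries. Between monoclonal and polyclonal Treg cells it was 3116, and 1841 in a fit of only those libraries and 1935 with CD3 scaling. Between monoclonal and polyclonal non-Treg cells it was 2505, and 4437 in a fit of only those libraries and 1370 to 1625 without 1 of them. Differences between members at or under about 1 CPM in the polyclonal libraries were limited by depth.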
